A study of Danio rerio with 13 samples.

Results

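Zebrafish skin carries bony scales, and the genes described here are those of the cells that build and remodel them: osteoblasts, osteoclasts, and the signals that place a scale in the skin and set its growth. A list of 37 gene names was matched by symbol to the deposited count table, and 40 of its 32105 rows were found, 15 for osteoblasts, 16 for scale signalling and 9 for osteoclasts. The name dcstamp had no row. For 6 names (col10a1, bmp2, shh, fgf20, fgfr1 and tcirg1) the name table gave 2 rows without a paralog letter, so both copies were kept and are told apart by their Ensembl number. A filter on low counts left 37 of the 40 rows for testing, namely all 15 osteoblast rows, 14 of 16 signalling rows and 8 of 9 osteoclast rows. The 3 that were not tested were ihhb, fgf20 ENSDARG00000086070 and the cell fusion gene ocstamp, with at most 5, 8 and 3 counts in any sample.

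RNA was sequenced from the skin of male zebrafish of the AB strain at 3 months of age, in 13 samples of 3 tert genotypes. Of these, 5 were wild-type (WT, tert+/+), 5 carried 1 mutant copy (heterozygous, HET, tert+/-) and 3 carried the mutation on both copies (homozygous, HOM, tert-/-). tert encodes the catalytic protein of telomerase, and the mutant line, hu3430, is carried in every cell of the fish, so no group is a model of scale cells alone. The comparisons ask whether losing 1 or both copies of tert goes with a change in these genes. The labels number the samples separately but do not tie each to a named fish, so each p-value sets a difference against the spread over samples, whatever its source.

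The scales of bony fish such as zebrafish lie in the dermis and overlap like tiles. Each is made by a sheet of osteoblasts, which secrete collagen and mineralise it, and osteoclasts resorb scale matrix during remodelling and regeneration. In the epidermis and the dermis below it, signals of the Eda, Wnt, Fgf and Hedgehog families start and pattern the scale primordium. Ectodysplasin (Eda) acts through its receptor Edar and the adaptor Edaradd, lef1 is a transcription factor of the Wnt pathway, Fgf20 acts through Fgf receptors, and ptch1 is both a receptor of Hedgehog ligands and a target that their signalling switches on. No sequences of these genes were available from the tables used here, so none is printed.

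Total counts per sample ran from 15709310 to 30249877, and genes of the mitochondrial genome took 19.9% (HOM1) to 56.4% (HOM3) of them. Keratinocyte markers were abundant in every sample, with a summed level of 7903 to 33591 CPM (counts scaled to a common library size). Markers of skeletal muscle and liver were also present and uneven: the summed level of 15 muscle genes was 2684 CPM in WT4 and 82436 CPM in WT5, and that of 13 liver genes 55.9 CPM in HOM1 and 40775 CPM in WT5. Their values are given again beside the results they move with.

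RNA of the osteoblast genes was counted in every sample, though runx2a and bglap had as few as 3 counts. sp7, the transcription factor (osterix) that commits cells to the osteoblast fate, had 25 to 1537 counts per sample. The most abundant members per length were a collagen X gene, col10a1 ENSDARG00000101535, with a median level of 596 CPM per kilobase, and sparc, a collagen-binding matrix glycoprotein, with 452 CPM per kilobase. The other collagen X copy, col10a1 ENSDARG00000054753, followed at 89.7 CPM per kilobase, while sp7 itself stood at 1.23. Among the osteoclast genes, ctsk (cathepsin K, the protease that digests bone collagen in osteoclasts) had the highest level at 51.7 CPM per kilobase, against 1.15 for acp5a, which encodes the tartrate-resistant acid phosphatase used to stain osteoclasts. The signalling genes ran from 0.0608 CPM per kilobase for shh ENSDARG00000038867 to 2.33 for edaradd among the 14 tested. The osteoclast label rested on weaker ground than the osteoblast label. ocstamp had at most 3 counts per sample, and ctsk and acp5a did not vary together (below, with the pairs). With the 7 other tested osteoclast genes, ctsk had a rho from -0.23 to 0.17. Whether ctsk stood for osteoclasts in this skin was not tested.

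**Figure D1:**
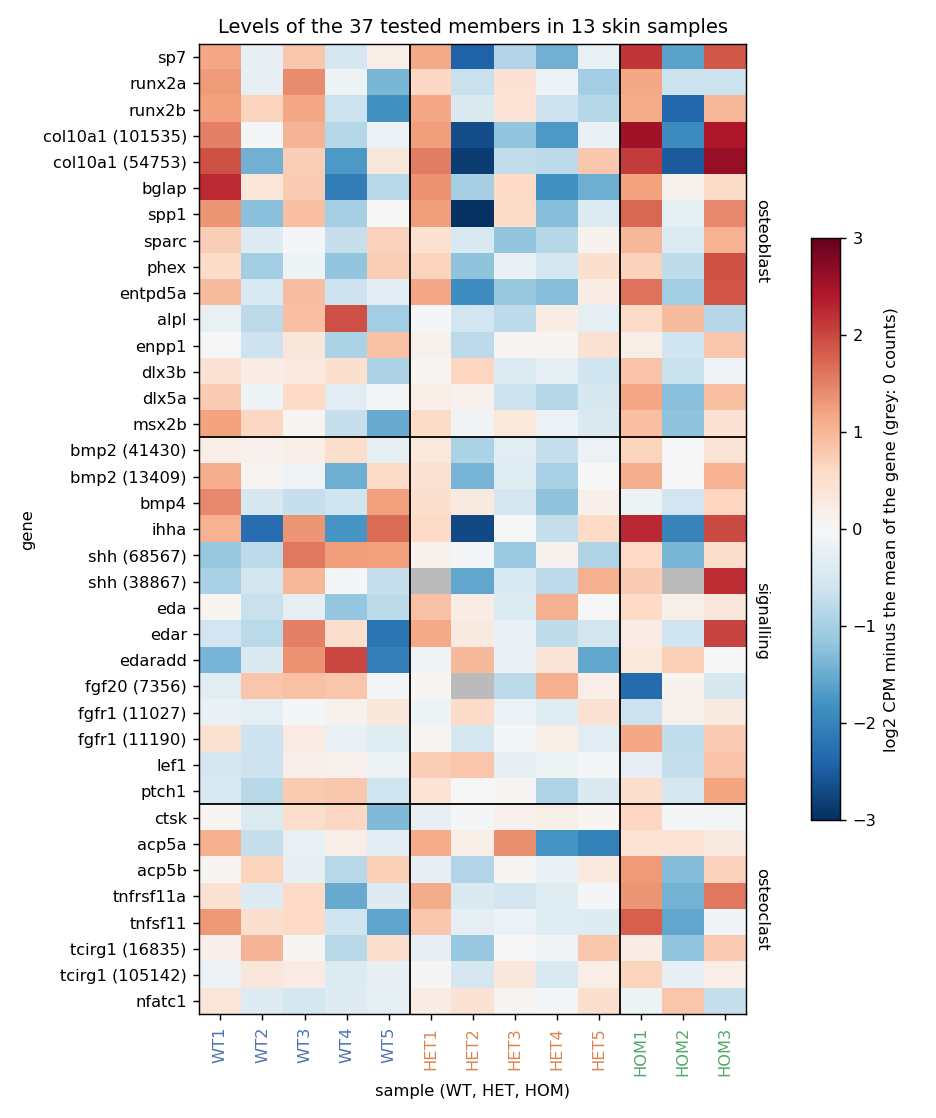
Level of each of the 37 tested genes (rows, by role) in each of the 13 skin samples (columns, coloured by genotype) as log2 CPM minus the mean of the gene, with 0 counts in grey and the last digits of the Ensembl number telling gene copies apart. The columns of HOM1, HOM3, WT1, HET1 and WT3 are red across most osteoblast rows, and the rows of ctsk, alpl and nfatc1 do not follow them.

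The osteoblast genes varied widely from sample to sample, and they did so within every genotype. sp7 was at 18.2, 6.87, 14.2, 5.69 and 9.29 CPM in WT1 to WT5, at 17.9, 1.52, 4.38, 2.99 and 6.94 CPM in HET1 to HET5, and at 35.8, 2.67 and 29.7 CPM in HOM1 to HOM3. HOM1 and HOM3 were thus the highest of all 13 samples, HOM2 was second lowest, and the 3 genotypes overlapped. The distance from the lowest sample to the highest was 23.6-fold. The col10a1 copy ENSDARG00000101535 was at 3998, 1380, 2872, 773 and 1245 CPM in the WT samples, at 3378, 223, 626, 429 and 1231 CPM in the HET samples, and at 8046, 374 and 7616 CPM in the HOM samples. It followed the same order of samples at the top (HOM1, HOM3, WT1, HET1 and WT3) and at the bottom (HET2 and HOM2), over a 36.0-fold range. For sparc the levels were 2102, 957, 1208, 772 and 2015 CPM in WT, 1719, 921, 555, 698 and 1355 CPM in HET, and 2490, 953 and 2599 CPM in HOM, a narrower range of 4.68-fold in which HOM1 and HOM3 were again highest.

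HOM1 was among the 5 highest samples for all 15 osteoblast genes, WT1 for 13, HET1 for 12 and WT3 and HOM3 for 11 each. HOM2, WT4 and HET4 were each among the 5 lowest for 12 of them, and HET2 for 11. The high samples did not share a genotype, and HOM1 had the lowest mitochondrial share of all and HOM3 the highest. They did have few muscle marker counts: the summed muscle markers were at 5263 CPM in HOM1, 9826 in HET1, 9876 in WT1, 12932 in WT3 and 13675 in HOM3, and every other sample except WT4 was at 26376 CPM or more. sp7 had r = -0.54 and rho = -0.46 with the muscle markers (permutation p adjusted over 27 relations 0.14 and 0.28), and 0 of 15 muscle genes had a rho above 0 with sp7. WT4, lowest in muscle markers at 2684 CPM, was among the low samples for osteoblast genes. In a piece of skin, fewer osteoblasts and less RNA per osteoblast cannot be told apart.

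The spread of these genes was large against that of other genes. The median standard deviation (SD) of log2 CPM over the 13 samples was 0.58 for all 19141 genes tested. It was 1.8 for col10a1 ENSDARG00000054753 and 1.66 for the other col10a1 copy, and 97.2% and 96.1% of all genes had a smaller SD. For sp7 it was 1.37 (92.3% of genes smaller). It was 1.32 for spp1, whose product osteopontin binds mineral, and 1.21 for entpd5a, a nucleotide phosphatase that zebrafish need to mineralise bone. Other osteoblast genes were steadier. dlx3b, a homeobox factor of skin and bone, had an SD of 0.55, and enpp1, which makes the mineralisation inhibitor pyrophosphate, had 0.58. alpl, the phosphatase that removes pyrophosphate, had an SD of 0.88 but did not follow sp7. It was highest at 80.2 CPM in WT4, where sp7 was at 5.69 CPM, and it was at 11.6 CPM in HOM3. Members of other roles were closer to alpl: its rho was 0.65 with ctsk and 0.70 with edaradd. Like alpl, both were highest in WT4 and lowest in WT5.

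**Figure D2:**
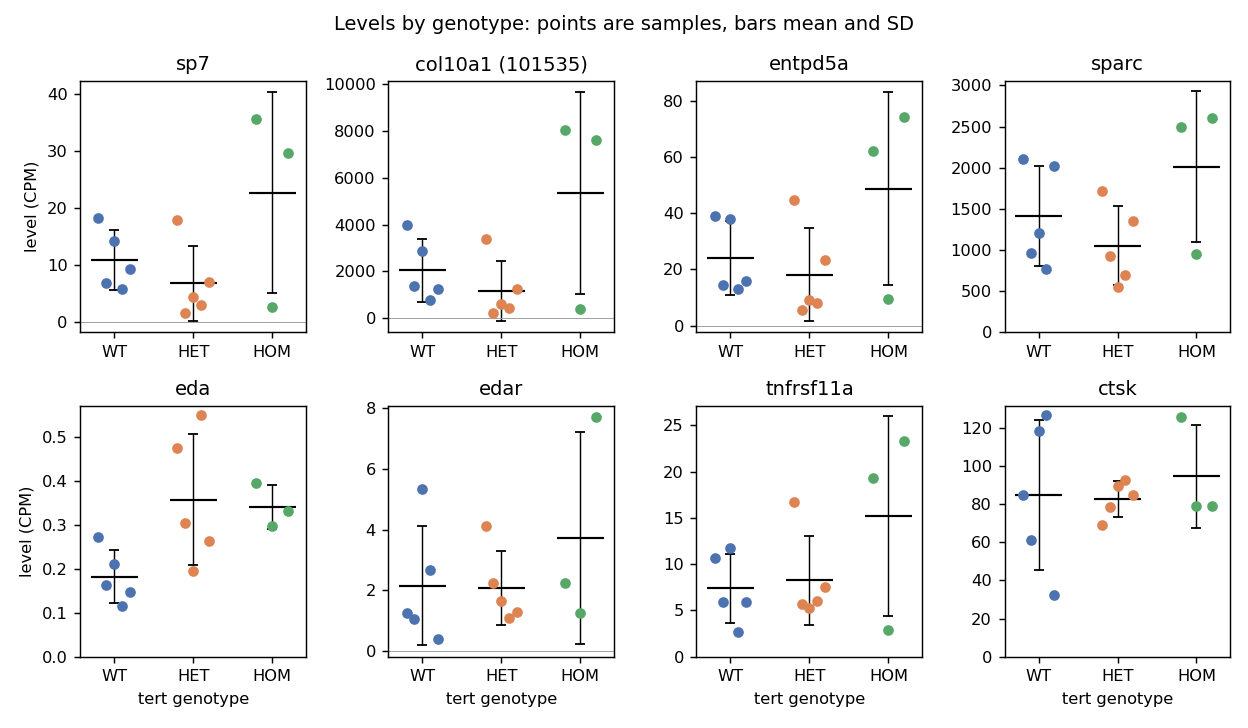
Levels of 8 genes in CPM on linear axes, 1 panel a gene, by tert genotype: each point is 1 sample, horizontal bars are means and vertical bars 1 SD (n = 5, 5 and 3). In the panels of sp7, col10a1, entpd5a and tnfrsf11a, 2 of the 3 HOM samples lie above every other sample and the remaining HOM sample lies near the lowest.

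No member passed the test between genotypes. With edgeR's quasi-likelihood test and Benjamini-Hochberg adjustment over all 19141 genes, 0 of 37 members were called in any of the 3 comparisons (HOM with WT, HET with WT, HOM with HET), beside 0 genes (0%) in each. DESeq2 called 40 genes (0.207%) between HOM and WT, 105 (0.517%) between HET and WT and 1 (0.00379%) between HOM and HET, of which 0 were members. At an unadjusted edgeR p under 0.05, 0 of 37 members stood between HOM and WT, 1 between HET and WT (eda) and 3 between HOM and HET (sp7, col10a1 ENSDARG00000101535 and bmp2 ENSDARG00000041430), beside 2.73%, 5.49% and 2.74% of all genes.

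For sp7 the log2 fold change was 1.06 ± 0.79 (SE) in HOM against WT, with mean levels of 22.7 ± 17.6 CPM (SD, n = 3) and 10.9 ± 5.25 CPM (SD, n = 5). This is a 2.09-fold difference with a 95% interval from 0.641 to 6.82, which reaches from a fall to a large rise. In HOM against HET the log2 fold change of sp7 was 1.75 ± 0.79 (unadjusted p = 0.045, edgeR adjusted p = 0.9998). It moved with single samples: the HOM against WT value was 0.57 without HOM1 and 1.59 without HOM2. For col10a1 ENSDARG00000101535 the log2 fold change was 1.38 ± 0.94 for HOM over WT, -0.80 ± 0.83 for HET over WT and 2.18 ± 0.94 for HOM over HET. The last had an unadjusted p of 0.038 in edgeR and became 3.12 without HET1. For sparc the values were 0.51 ± 0.47, -0.43 ± 0.41 and 0.94 ± 0.47. The 3 comparisons share samples, so their values are set side by side and not counted as separate evidence.

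Described by counts, 11 of 15 osteoblast genes had a log2 fold change above 0 in HOM against WT (median 0.36), where 43.2% of all genes did (median -0.05). In HET against WT it was 1 of 15 (median -0.40; all genes 45.6%, median -0.04), the exception being phex at 0.00, a gene of phosphate balance that also has a bone role in mammals. In HOM against HET it was 15 of 15 (median 0.86; all genes 48.8%, median -0.01). The medians ran from 0.17 to 0.80, from -0.82 to -0.16 and from 0.62 to 1.28 when each sample was left out in turn. With the mean of the muscle markers as a covariate, the counts became 10, 2 and 11 of 15 in the order given, and the medians 0.23, -0.23 and 0.55. Since these genes vary together (next), the counts are not 15 separate observations.

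**Figure D3:**
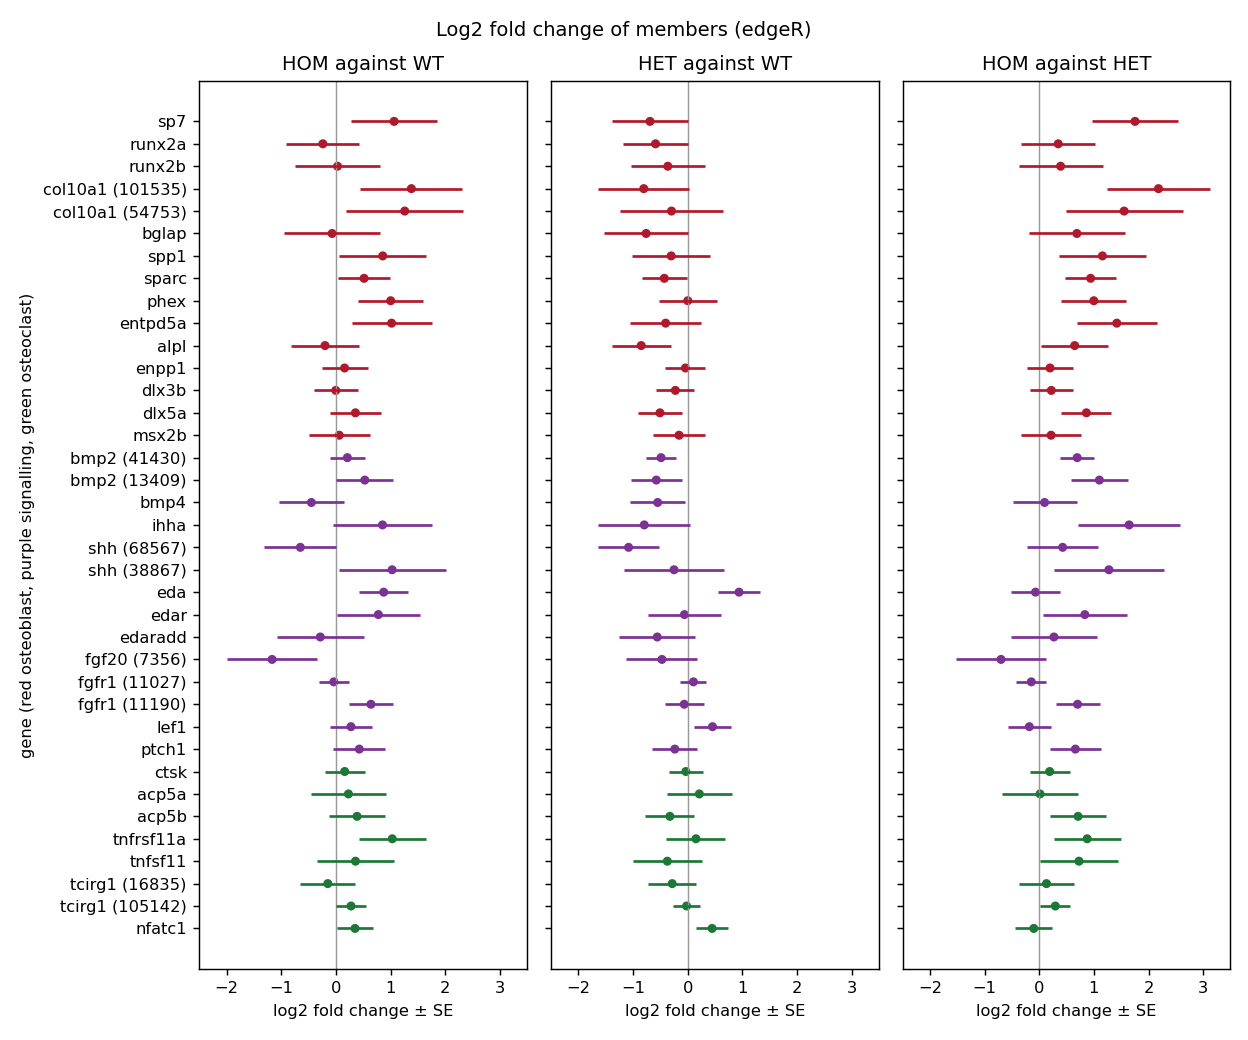
Log2 fold change (point) with its standard error (bar) of the 37 tested genes in the 3 comparisons, from edgeR, with osteoblast genes in red, signalling genes in purple and osteoclast genes in green. In HOM against HET all 15 osteoblast points lie right of 0, and several bars, such as those of sp7 and both col10a1 copies, end clear of it. In HET against WT 14 of 15 lie left of 0, with bars that mostly reach 0 or come near it. A bar clear of 0 is not a passed test.

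Most osteoblast genes varied together from sample to sample. Over the 13 samples, sp7 and entpd5a had Pearson's r = 0.97 and Spearman's rho = 0.97 (permutation p = 1e-05 for each, the smallest that the permutations can give; adjusted p = 0.00019 over 19 pairs chosen by role). Without HET2 and HOM1, the samples farthest from the median of sp7, r was 0.96, and it was 0.97 with the genotype means removed. sp7 also went with sparc (r = 0.82, rho = 0.88; permutation p adjusted 0.0054 and 0.0015) and with ihha, an Indian hedgehog ligand that growing bone makes (r = 0.85, rho = 0.86; permutation p adjusted 0.0034 and 0.0015). It did not go with alpl (r = -0.05, rho = -0.12; permutation p adjusted 0.88 and 0.83). The median rho over the 105 pairs of osteoblast genes was 0.59, and 89 were above 0. The lowest was -0.44, for dlx3b with enpp1. All of these correlations compare libraries that share the same scaling.

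Among all 666 pairs of tested members, 61 passed an adjusted permutation p of 0.05 in both r and rho, and all 61 were positive. Of these, 29 of 105 joined osteoblast genes with each other, 19 of 210 joined an osteoblast with a signalling gene, and 9 of 120 an osteoblast with an osteoclast gene. The strongest was sp7 with col10a1 ENSDARG00000101535 (r = 0.99, rho = 0.98; permutation p adjusted 0.001 for each). Other close pairs joined runx2b, an osteoblast transcription factor that acts before sp7, the homeobox gene msx2b and tnfsf11. Their ties to the other osteoblast genes differed from gene to gene. With runx2b, msx2b and tnfsf11 in turn, rho was 0.82, 0.77 and 0.82 for bglap and 0.65, 0.59 and 0.65 for sp7. It was 0.43, 0.41 and 0.44 for sparc, 0.34, 0.26 and 0.31 for phex, and 0.07, -0.05 and 0.04 for enpp1. runx2b went with msx2b at r = 0.92 and rho = 0.90, with tnfsf11 at r = 0.88 and rho = 0.95, and msx2b went with tnfsf11 at r = 0.91 and rho = 0.95. runx2b was highest in WT1, with 18.3 CPM, and lowest in HOM2, with 1.53 CPM, and msx2b was highest in WT1 and lowest in WT5. HOM3 had 15.6 CPM of runx2b but only 0.414 CPM of tnfsf11, while HOM1 had 16.8 and 1.54 CPM.

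**Figure D4:**
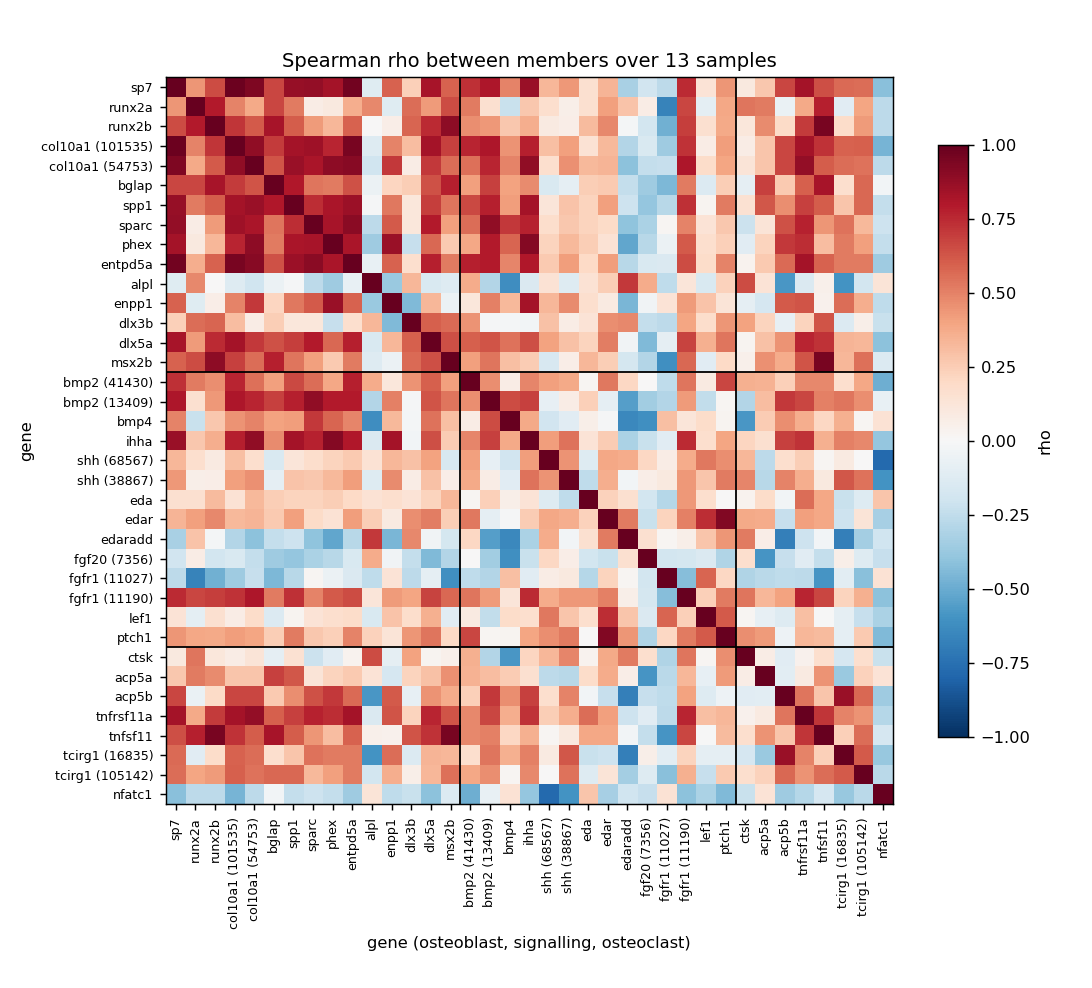
Spearman's rho over 13 samples for each pair of the 37 tested genes, on a colour scale from -1 (blue) to 1 (red), with lines between osteoblast, signalling and osteoclast genes. The upper left block of osteoblast genes is mostly red except for alpl and for parts of the rows of dlx3b and enpp1. The blocks of signalling and osteoclast genes are mixed, with medians of 0.17 and 0.15.

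The osteoclast genes did not vary together as a group, with a median rho of 0.15 over their 28 pairs. ctsk was at 84.7, 61.3, 118, 127 and 32.6 CPM in WT, at 68.8, 78.7, 89.4, 92.6 and 84.8 CPM in HET, and at 126, 78.8 and 79.1 CPM in HOM. It was lowest in WT5 and the genotypes overlapped, with WT samples at both the top and the bottom. Its log2 fold changes were 0.16 ± 0.37 (HOM over WT), -0.03 ± 0.32 (HET over WT) and 0.19 ± 0.36 (HOM over HET). The first is a 1.12-fold difference, with a 95% interval from 0.645 to 1.93. Over the samples ctsk did not go with acp5a (r = 0.08, rho = 0.08), with tnfrsf11a (r = 0.08, rho = 0.04) or with sp7 (r = 0.09, rho = 0.10), with permutation p-values adjusted over the 19 pairs from 0.83 to 0.89. WT5, the sample lowest in ctsk, had the most muscle and liver marker counts. ctsk had r = -0.79 and rho = -0.58 with the liver markers, r = -0.69 and rho = -0.60 with the muscle markers, and r = -0.78 and rho = -0.74 with the cartilage markers. Adjusted over 27 such relations, the permutation p was 0.041, 0.053 and 0.033 for r and 0.17, 0.16 and 0.071 for rho. Without WT4 and WT5 the r values were -0.56, -0.50 and -0.61, so part of the relation rests on those samples. With keratinocyte markers ctsk went the other way, at r = 0.65 and rho = 0.34 (permutation p adjusted 0.091 and 0.43). That r was 0.365 without WT4 and WT5.

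Several other osteoclast genes varied with sp7 more than ctsk did. The 8 tested osteoclast genes had a median rho of 0.56 with sp7, and 5 were above 0.5, where 14.0% of all genes were. These were tnfrsf11a (0.84), acp5b (0.67), tnfsf11 (0.65), tcirg1 ENSDARG00000016835 (0.57) and tcirg1 ENSDARG00000105142 (0.55). Lower values were those of acp5a (0.27), ctsk (0.10) and nfatc1 (-0.42). With runx2b in place of sp7, rho of the 5 was 0.70, 0.19, 0.95, 0.18 and 0.43 in the same order. Over all 120 pairs of an osteoblast with an osteoclast gene the median rho was 0.37, and 9 pairs passed. tnfrsf11a, which encodes RANK, the receptor that drives osteoclast formation, was at 10.7, 5.93, 11.8, 2.73 and 5.92 CPM in WT, at 16.7, 5.71, 5.30, 5.98 and 7.54 CPM in HET, and at 19.3, 2.92 and 23.3 CPM in HOM. HOM3, HOM1 and HET1 were highest, and the genotypes overlapped. HOM1 and HOM3 were also the top samples for sp7, where WT1 came before HET1. It went with sp7 at r = 0.82 and rho = 0.84 (permutation p adjusted over the 666 pairs 0.014 and 0.017), and at r = 0.87 without the 2 samples farthest from the median of sp7. Its log2 fold change in HOM against WT was 1.03 ± 0.61, a 2.04-fold difference with a 95% interval from 0.817 to 5.11. tnfsf11, which encodes its ligand RANKL, a product of osteoblast-lineage cells in mammals, ran from 0.148 CPM in WT5 and HOM2 to 1.54 CPM in HOM1, on 3 to 66 counts. It went with runx2b, as given above, but its relation with ctsk did not pass (r = 0.44, rho = 0.17; permutation p adjusted 0.41 and 0.75).

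The 2 acid phosphatase genes differed. acp5b was at 1.39, 2.13, 1.13, 0.755 and 2.18 CPM in WT, at 1.13, 0.729, 1.37, 1.17 and 1.65 CPM in HET, and at 3.23, 0.544 and 2.15 CPM in HOM, so that HOM held both the highest and the lowest sample. It went with tcirg1 ENSDARG00000016835, a subunit of the proton pump that acidifies bone under the osteoclast (r = 0.86, rho = 0.86; permutation p adjusted 0.007 and 0.008), which was the single pair of osteoclast genes that passed. acp5a ran from 0.488 CPM in HET5 to 5.16 CPM in HET3. nfatc1, the transcription factor that RANK signalling switches on in osteoclasts, was at 4.62, 2.74, 2.51, 2.73 and 3.00 CPM in WT, at 4.17, 4.86, 3.79, 3.51 and 4.99 CPM in HET and at 3.23, 6.43 and 2.24 CPM in HOM. It was highest in HOM2, where the osteoblast genes were low, and its rho with sp7 was -0.42. Described by counts, 7 of 8 osteoclast genes had a log2 fold change above 0 for HOM over WT (median 0.31), 3 of 8 for HET over WT (median -0.03) and 7 of 8 for HOM over HET (median 0.24). The shares over all genes were 43.2%, 45.6% and 48.8%. The first median became -0.017 without HOM1. The second crossed 0 when WT2, WT3 or HET2 was left out, and ran from -0.17 without HET3 to 0.085 without WT3.

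**Figure D5:**
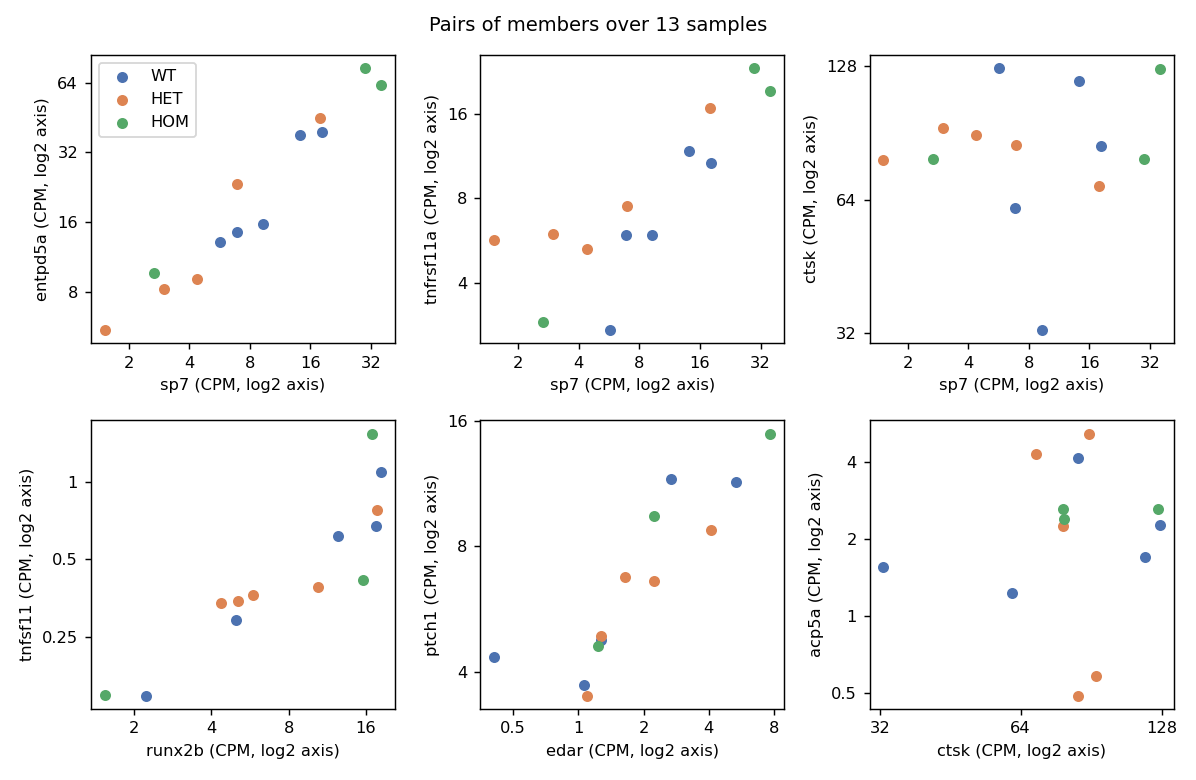
Levels of 6 pairs of genes in CPM on log2 axes, with each point 1 of 13 samples coloured by genotype. sp7 rises with entpd5a and tnfrsf11a, runx2b with tnfsf11 and edar with ptch1, while ctsk shows no trend with sp7 or acp5a (r = 0.09 and 0.08).

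Among the scale signals, eda was the 1 member whose levels did not overlap between HOM and WT. It was at 0.272, 0.164, 0.212, 0.116 and 0.148 CPM in WT, at 0.476, 0.304, 0.196, 0.550 and 0.263 CPM in HET, and at 0.396, 0.297 and 0.331 CPM in HOM. All 3 HOM samples lay above all 5 WT samples, as they did for 0.439% of all genes, while for 0.742% they lay below, and the HET samples overlapped with both. The log2 fold change was 0.87 ± 0.44 in HOM against WT (unadjusted p = 0.071) and 0.94 ± 0.39 in HET against WT (unadjusted p = 0.032), with adjusted p-values of 0.9999 and 0.83 in edgeR. These levels rest on 2 to 17 counts per sample. eda did not go with its receptor gene edar (r = 0.25, rho = 0.23; permutation p adjusted 0.66 and 0.75) or with lef1 (r = 0.26, rho = 0.17; permutation p adjusted 0.66 and 0.75).

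edar itself varied 18.9-fold, from 0.407 CPM in WT5 to 7.70 CPM in HOM3, and WT3 and HET1 were next at 5.33 and 4.11 CPM. It went with ptch1 at r = 0.88 and rho = 0.93 (permutation p adjusted over the 666 pairs 0.003 and 0.002), and r was 0.89 without HOM3 and WT5. ptch1 ran from 3.51 CPM in HET4 to 14.9 CPM in HOM3. None of the Hedgehog ligand genes passed with ptch1: r was 0.38 for ihha, 0.56 for shh ENSDARG00000068567 and 0.50 for shh ENSDARG00000038867, with permutation p-values adjusted over the 19 pairs from 0.23 to 0.45. edar was lower where total counts (r = -0.60, rho = -0.67) and muscle markers (r = -0.62, rho = -0.64) were higher, and the permutation p-values adjusted over 27 relations were 0.098 and 0.091 for r and 0.14 for both rho. It went the other way with keratinocyte markers (r = 0.62, rho = 0.53; permutation p adjusted 0.091 and 0.22), and was lower with more liver (r = -0.59, rho = -0.46; permutation p adjusted 0.098 and 0.28) and cartilage markers (r = -0.55, rho = -0.59; permutation p adjusted 0.13 and 0.16). None of these relations passed the adjusted test, and their part in the edar levels was not tested further. edaradd had another pattern, from 1.07 CPM in WT5 to 17.8 CPM in WT4, which were also the lowest and highest samples of alpl and ctsk.

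Of the bone morphogenetic protein genes, which encode ligands that promote bone formation, both bmp2 copies had their lower levels mostly in HET samples, a difference that did not pass the test. bmp2 ENSDARG00000041430 was at 2.99, 2.86, 3.00, 3.78 and 2.11 CPM in WT, at 3.21, 1.34, 2.09, 1.58 and 2.29 CPM in HET, and at 4.14, 2.57 and 3.48 CPM in HOM. HOM and HET overlapped through HET1, and the log2 fold change between them was 0.69 ± 0.31 (unadjusted p = 0.045, edgeR adjusted p = 0.9998). bmp2 ENSDARG00000013409 was at 4.44, 2.21, 1.94, 0.755 and 3.11 CPM in WT, at 2.86, 0.789, 1.63, 1.07 and 2.06 CPM in HET, and at 4.44, 2.08 and 4.31 CPM in HOM. It followed many osteoblast genes but not all. The closest was sparc, with r = 0.84 and rho = 0.89 (permutation p adjusted 0.009 and 0.007), and the lowest rho was -0.30, with alpl. For bmp2 ENSDARG00000041430, rho ran from 0.11 with enpp1 to 0.77 with entpd5a, and was 0.73 with sp7. ihha ranged 31.4-fold from 0.0607 CPM in HET2 to 1.91 CPM in HOM1 on 1 to 82 counts. Its rho with osteoblast genes ran from -0.15 (alpl) to 0.92 (phex). For fgfr1 ENSDARG00000011190, a copy of the Fgf receptor gene, it ran from 0.12 (alpl) to 0.81 (col10a1 ENSDARG00000054753), with r = 0.78 and rho = 0.75 with sp7 (permutation p adjusted 0.019 and 0.047).

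The other fgfr1 copy, ENSDARG00000011027, was among the steadiest members, at 11.4 to 26.7 CPM with an SD of 0.35 on the log2 scale. fgf20 ENSDARG00000007356, resting on at most 14 counts per sample, stood at -1.17 ± 0.82 (log2 fold change) for HOM over WT. bmp4 ran from 0.756 CPM in HET4 to 4.74 CPM in WT1, lef1 from 2.57 CPM in HOM2 to 7.54 CPM in HOM3, and shh ENSDARG00000068567 from 0.495 CPM in HOM2 to 3.81 CPM in WT3. Described by counts, 9 of 14 signalling genes had a log2 fold change above 0 for HOM over WT (median 0.35), 3 of 14 for HET over WT (median -0.36) and 10 of 14 for HOM over HET (median 0.54). The shares over all genes were 43.2%, 45.6% and 48.8%. The first median became -0.075 without HOM3.

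Many other bone matrix genes, but not all, shared the pattern of sp7. In a list of 33 tested genes that are not members, the median rho with sp7 was 0.54, and 18 of 33 were above 0.5, where 14.0% of all genes were. Among the closest were ifitm5, a membrane protein of mineralising osteoblasts (rho = 0.97), the mineralisation phosphatase phospho1 (0.95), the scale and tooth matrix gene scpp1 (0.95), the channel gene panx3 (0.95), the cadherin cdh11 (0.94) and col1a1a (0.83). Among those that did not follow were bglapl (-0.27), slc20a1 ENSDARG00000010641 (-0.20), tnn (-0.12) and mgp (-0.04), a calcification inhibitor. In all, 25 of 33 had a rho above 0. The log2 fold change was above 0 in 28 of 33 for HOM over WT (median 0.54), in 10 of 33 for HET over WT and in 31 of 33 for HOM over HET, and 0 passed the adjusted test in any. Over all genes it was above 0 in 43.2%, 45.6% and 48.8%. Many of the 33 genes vary with sp7, so the counts are not separate observations. The dermal fibroblast markers, 5 of whose 11 genes are also in the bone matrix list, had r = 0.68 and rho = 0.76 with sp7 (permutation p adjusted 0.082 and 0.071 over 27 relations). Of these markers, 11 of 11 had a log2 fold change above 0 in HOM against HET, where 48.8% of all genes did. Their summed level ran from 3837 CPM in HET3 to 36162 CPM in HOM3, and was 33445 CPM in HOM1. Most of this sum was type I collagen, whose genes are also in the bone matrix list. In HOM3, col1a1a was at 10764, col1a1 ENSDARG00000035809 at 13788 and col1a2 at 9893 CPM. The part of the dermal fibroblast markers in the osteoblast result was not tested.

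The 10 genes outside the members most like sp7 over the 13 samples, by rho, were col5a2b and clec3b (0.98 each), paplnb, ENSDARG00000104216, thsd7a and ifitm5 (0.97 each), kank1 and bmp3 (0.97 each), and mamdc2 and prss35 (0.96 each). Those most like ctsk were others: irge4 (0.97), cabz01076234.2 (0.93), linc-nlrp12 (0.88), adam10a (0.86), man1b1 and mcm6 (0.84 each), ifngr2 (0.84), and macrod1, btr16 and cmtr1 (0.83 each). The 2 sets of 10 had no gene in common, which follows from the rho of 0.10 between sp7 and ctsk and adds nothing to it. A separate list of 25 osteoclast-related genes had a median rho with sp7 of 0.06. In HOM against WT, 12 of 25 had a log2 fold change above 0, where 43.2% of all genes did. Among the pathway lists, rho with sp7 was 0.88 for msx3 and 0.79 for bmp6, but -0.83 for etv4, -0.85 for spry1 and -0.76 for spred1, which are targets or inhibitors of Fgf signalling, and -0.75 for the Bmp target id1. The list medians were -0.31 for 14 Fgf genes, 0.18 for 21 Bmp genes, 0.10 for 18 Wnt genes, -0.19 for 13 Hedgehog genes and 0.30 for 8 Eda and NF-kB genes. These are descriptions over the same 13 samples.

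Of those pathway genes, 0 passed the adjusted edgeR test in any comparison. At an unadjusted p under 0.05, the Fgf target etv5b stood higher in HOM against WT (log2 fold change 0.48 ± 0.22). In HET against WT this held for relt, a receptor of the tumour necrosis factor family, higher at 0.67 ± 0.28, and for wnt5b at -1.20 ± 0.45, the Bmp receptor gene bmpr2 ENSDARG00000020057 at -0.78 ± 0.27 and the Bmp antagonist chrd at -3.03 ± 1.24. In HOM against HET it held for msx3 (1.35 ± 0.58) and wnt5b (1.23 ± 0.50). These are 1, 4 and 2 of the 74 tested genes of the 5 pathway lists (1.35%, 5.41% and 2.7%), no more than the 2.73%, 5.49% and 2.74% of all genes. The Hedgehog list had 4 of 13 genes above 0 in HOM against WT and 1 of 13 in HET against WT, the Wnt list 8 and 3 of 18, the Bmp list 9 and 7 of 21, and the Fgf list 8 and 9 of 14. The shares over all genes were 43.2% and 45.6%.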

How the data were processed

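RNA of zebrafish skin was sequenced in 13 samples (5 WT, 5 HET, 3 HOM, grouped by the strain label). The authors deposited whole-number read counts per gene. The submitters' processing notes name the genome build GRCz10 and the tools featureCounts 1.4.6-p4, STAR 2.4.1d and bcl2fastq 1.8.4. The library kit does not mark strand, so reads of overlapping genes are not separated by strand, and reads of near-identical copies (the paired names) may be split or lost. The deposited RPKM values were treated as a score, because each had been divided by library totals taken in turn down the rows: over 3854 genes the implied length varied by 32.3% with each library's own total and by 0.0026% with the totals in turn. They served to recover gene lengths.

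Counts were tested with edgeR 4.0.16 (R 4.3.3): filterByExpr kept 19141 of 32105 genes, TMM factors were 0.769 to 1.43, all 13 samples shared 1 estimate of the spread, and the quasi-likelihood F test was two-sided with Benjamini-Hochberg adjustment at 0.05. CPM used the TMM-scaled library size, and correlations used log2 CPM (prior count 2) with 100000 permutations, two-sided. Intervals are 95%, from the log2 fold change, its SE and the t distribution with the degrees of freedom of the edgeR test. Symbols came from a table of gene names, which named 81.8% (26269) of the IDs; runx2a, entpd5a, acp5a, dlx3b and dlx5a were read from names without a letter.

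The members, lists and tests were chosen with earlier results of these data known. Genes given in every sample were the 3 of each role with the smallest p in any comparison, with sp7, ctsk and eda; further genes, the 666 pairs and the relations of edar were picked after values were seen. The alternatives were DESeq2 1.42.0, limma 3.58.1 on recomputed log2(RPKM + 0.1) and log2(RPKM + 1), other scalings, filters and edgeR settings, 1 surrogate variable (sva 3.50.0), muscle or liver markers as covariate, a threshold of 0.1, and leaving out each sample. The edgeR fit was tested on simulated data for HOM against WT. It recovered 5.3% of 2-fold, 43.3% of 4-fold, 74.7% of 8-fold and 82% of 16-fold changes (150 each). A 2-fold change would thus rarely be called. These rates are not those of the members. Among the members the SD of log2 CPM ran from 0.35 (fgfr1 ENSDARG00000011027) to 1.8 (col10a1 ENSDARG00000054753). It was 1.37 for sp7, and the median of all genes tested was 0.58. Recovery at the spread and counts of each member was not tested.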

Additional observations from a re-analysis of the deposited data

Results flagged for a closer look

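In 4 of 74 tests of a gene in a genotype of 5 samples, 1 sample stood apart from the rest by Dixon's criterion (gap over range above 0.71), and chance alone flags about 1 in 20 such tests. dlx3b, a homeobox gene of skin and bone, was at 15.5 CPM in WT5 and at 34.6 to 41.0 CPM in the other WT samples. tnfrsf11a, the RANK gene, was at 16.7 CPM in HET1, against 5.30 to 7.54 CPM in the other HET samples. tnfsf11, the RANKL gene, was also highest in HET1, at 0.774 CPM against 0.338 to 0.392 CPM. These levels rest on only 13 counts in HET1 and 6 to 10 in the other HET samples. nfatc1 was at 4.62 CPM in WT1, against 2.51 to 3.00 CPM in the other WT samples. WT5 had the highest summed muscle (82436 CPM) and liver (40775 CPM) markers, and HET1 was the HET sample with the highest sp7 (17.9 CPM). The part of either in these values was not tested.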

How the results depend on the processing

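Every alternative, including each sample left out, called 0 members. DESeq2 called 40 genes between HOM and WT, 105 between HET and WT and 1 between HOM and HET, where edgeR called 0. No paired analysis was possible because the labels do not tie samples of different genotypes to each other. The shared numbers in names such as WT1, HET1 and HOM1 do not mark pairs. Leaving out each sample in turn moved the median log2 fold change of the signalling genes in HOM against WT between -0.075 and 0.56. It also took small values across 0: in HOM against WT nfatc1 (-0.18 to 0.63), acp5b (-0.18 to 0.83) and ctsk (-0.070 to 0.35), in HET against WT tnfrsf11a (-0.29 to 0.38) and ctsk (-0.24 to 0.16), and in HOM against HET eda (-0.21 to 0.026), nfatc1 (-0.63 to 0.18) and ctsk (-0.028 to 0.31). Other settings that turned a direction, all of values that passed no test, were as follows. In HOM against WT, bmp2 ENSDARG00000041430 became -0.037 with the liver covariate and -0.011 with limma on log2(RPKM + 0.1), which also gave -0.020 for acp5b, and ctsk became -0.27 with the liver covariate. In HET against WT, tnfrsf11a became -0.11 without scaling factors and -0.072 and -0.069 with limma at 0.1 and 1, and ctsk became 0.16 with a surrogate variable and 0.27 with the muscle covariate. In HOM against HET, eda became 0.058 without scaling and 0.034 and 0.0084 with limma at 0.1 and 1, and ctsk became -0.070, -0.050 and -0.068 with the surrogate variable, muscle and liver. Without scaling, r was 0.17 for sp7 with alpl, 0.13 for ctsk with tcirg1 ENSDARG00000016835 and 0.72 for tnfsf11 with ctsk (permutation p adjusted 0.026), where rho was 0.63 (permutation p adjusted 0.079). Other relations of ctsk were also higher without scaling, though none passed. Its r was 0.55 with tcirg1 ENSDARG00000105142, 0.38 with sp7, 0.36 with tnfrsf11a and 0.23 with acp5a (permutation p adjusted 0.12 to 0.57). Omitting the scaling factors moved the median of all genes to -0.21, -0.29 and 0.08 in the 3 comparisons, and 9, 0 and 15 of 15 osteoblast genes were then above 0. The cause of these moves was not tested.

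Several members had few counts: eda rested on 2 to 17 counts per sample, tnfsf11 on 3 to 66, ihha on 1 to 82, runx2a on 3 to 37, fgf20 ENSDARG00000007356 on 0 to 14 and shh ENSDARG00000038867 on 0 to 13. With 3 HOM samples, of which HOM2 was low and HOM1 and HOM3 were high in osteoblast genes, the intervals of those genes in HOM comparisons were wide.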
